A study of Mus musculus with 12 samples.

Results

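A set of 10 matrix genes was followed through the pressure-overloaded mouse heart, namely the 5 lysyl oxidases (Lox and Loxl1 to Loxl4) and 5 small leucine-rich proteoglycans (Dcn, Bgn, Lum, Fmod and Ogn). They were taken by symbol from the deposited table of estimated read counts, in which all 10 were found among 19308 genes. Lysyl oxidases are secreted copper enzymes that oxidise lysine residues of collagen and elastin, from which the covalent crosslinks of fibres form. Small leucine-rich proteoglycans are secreted proteins that bind collagen and steer how fibrils assemble, and decorin and biglycan also bind growth factors such as TGF-beta. In the heart both families are made mainly by fibroblasts, and crosslinked collagen makes the ventricular wall stiffer.

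Whole hearts of C57BL/6 mice were sequenced in 4 groups of 3 hearts (12 in all): WT sham, WT TAC, F3-KO sham and F3-KO TAC. TAC, transverse aortic constriction, narrows the aortic arch with a suture so that the left ventricle pumps against raised pressure, and sham hearts were not constricted. Surgery was done at 8 weeks of age and the hearts were taken 1 week later. F3-KO mice lack Fabp3, the heart fatty acid binding protein, through a CRISPR/Cas9 deletion in every cell and not in heart muscle alone. The study names the hearts of a group as biological replicates, and in bulk RNA fewer cells of a type and less RNA per cell cannot be told apart.

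Total estimated counts were 10424334 to 14372011 per heart, and levels are given as CPM (counts scaled to a common library size after TMM adjustment). Fabp3 was 2117 to 2849 CPM after sham and 2887 to 3064 CPM after TAC in WT hearts, and 1040.1 to 1089 and 1002 to 1143 CPM in F3-KO hearts, so its transcript was lower but not lost in all 6 F3-KO hearts. Markers of heart muscle dominated every heart, with 8 genes summing to 57251 to 94872 CPM of the library total, while 8 fibroblast markers summed to 1037 to 1897 CPM. All of these were detected in all 12 hearts except Lamc3 of the fibroblast list, which was at 0 in WT sham replicate 3. The 8 markers of activated fibroblasts (Postn, Cthrc1, Fap, Meox1, Cilp, Comp, Ddah1 and Thbs4) summed to 42.8 to 49.1 CPM in WT sham and 73.0 to 113 CPM in F3-KO sham hearts, with Cthrc1 at 0 in WT sham replicates 2 and 3. After TAC the hearts of each genotype were unlike one another, with sums of 448, 89.0 and 67.9 CPM in WT TAC replicates 1 to 3 and 829, 2203 and 96.2 CPM in F3-KO TAC replicates 1 to 3. These sums stand beside the results below, and their part in the results was not tested.

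Per length, decorin was the leading member in unstressed hearts. In WT sham hearts Dcn had a mean of 392 CPM per kilobase of its longest coding transcript, followed by Bgn at 106, Ogn at 51.6, Lum at 19.1 and Fmod at 2.32. Loxl1 led the lysyl oxidases at 15.7 CPM per kilobase, above Loxl2 at 2.76, Lox at 2.07, Loxl3 at 1.32 and Loxl4 at 0.409. Lox, Loxl2 and Fmod could not be ranked among themselves, since their SDs over 3 hearts were 1.36, 0.657 and 1.87 CPM per kilobase. On this scale Loxl1 made up 70.2% ± 1.35 of the lysyl oxidase signal in WT sham hearts (SD, n = 3). The WT TAC value was 57.0% ± 7.02, and F3-KO hearts had 67.9% ± 2.54 after sham and 55.7% ± 2.34 after TAC. For Lox the WT shares were 8.70% ± 2.49 after sham and 16.8% ± 9.20 after TAC. Its F3-KO shares were 7.23% ± 1.20 and 19.3% ± 7.56 in the same order. Among the proteoglycans Dcn held 65.8% ± 9.72 in WT sham and 50.3% ± 19.7 in F3-KO TAC hearts, and Bgn 20.4% ± 6.42 and 35.5% ± 16.9. Lengths were those of the GENCODE annotation of GRCm38, and a gene whose hearts use a shorter transcript would be understated.

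**Figure D1:**
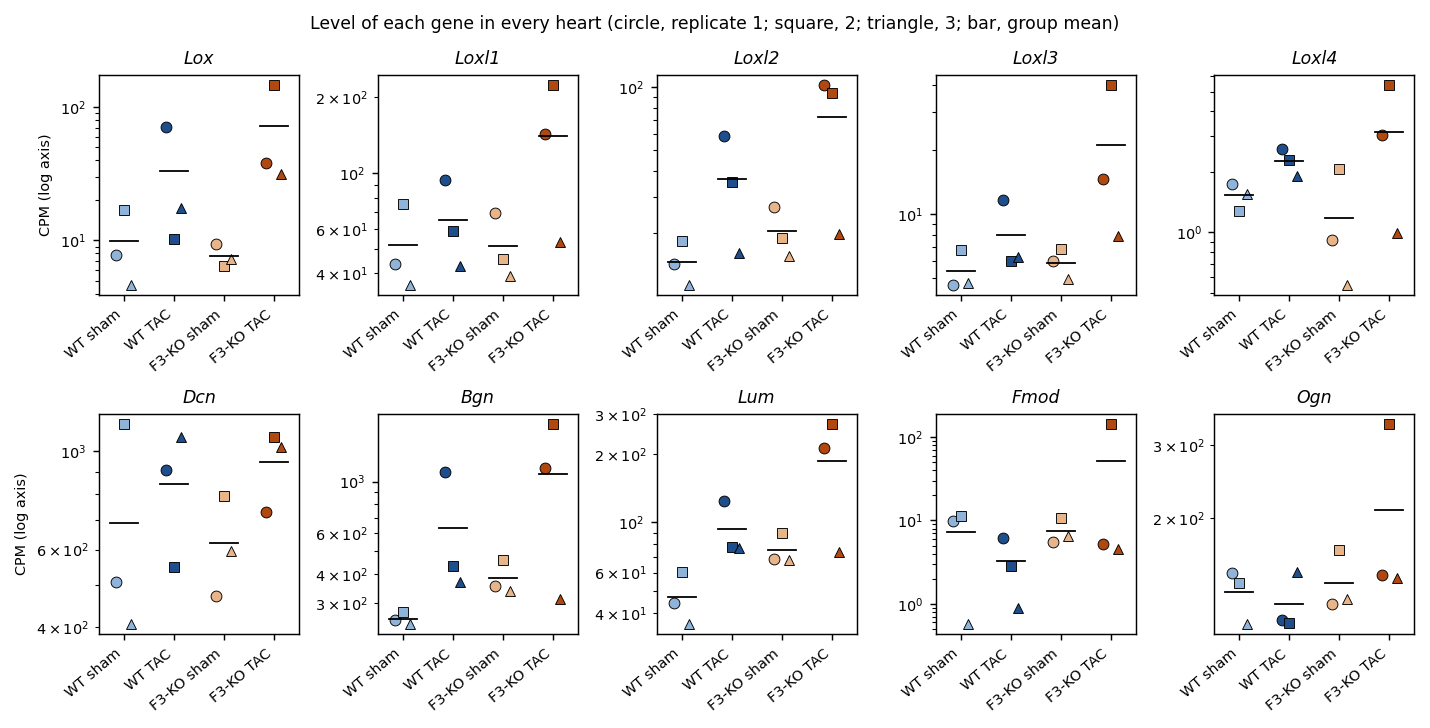
Level of each of the 10 genes in every heart, in CPM on a log axis, by group; circles, squares and triangles are replicates 1, 2 and 3 and the bar is the group mean. F3-KO TAC replicate 2 is the highest heart for Lox, Loxl1, Loxl3, Loxl4, Bgn, Lum, Fmod and Ogn, and F3-KO TAC replicate 3 lies among or near the sham hearts for Loxl1, Loxl2, Loxl4, Bgn, Lum and Ogn.

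The first comparison asked how pressure overload moved the members. Every member had a higher fitted mean after TAC when both genotypes were averaged, and 7 of 10 were past an unadjusted p of at most 0.05, all of them higher (Lox, Loxl1, Loxl2, Loxl3, Loxl4, Bgn and Lum), beside 11.3% of all 14094 tested genes. None of the 10 passed edgeR's quasi-likelihood test after Benjamini-Hochberg adjustment over all genes, which called 0.078% of them. DESeq2's Wald test called 5 members (Lox, Loxl2, Loxl3, Bgn and Lum; background 4.66%), all higher, and limma-trend called 0 (0.0851% of all genes). The median log2 fold change was 1.07 over the members and 0.00 over all tested genes.

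Lox, the founding enzyme of its family, had the largest fold of the members. It stood at 7.77, 17.0 and 4.66 CPM in WT sham and at 71.0, 10.2 and 17.4 CPM in WT TAC replicates 1 to 3. In F3-KO hearts it was 9.40, 6.40 and 7.24 CPM after sham and 37.8, 147 and 31.7 CPM after TAC. The WT groups overlapped through WT TAC replicate 2 and WT sham replicate 2, whereas every F3-KO TAC heart was above every F3-KO sham heart. The averaged log2 difference was 2.49 (SE 0.55), which is 5.63-fold with a 95% interval of 2.45 to 12.9, at an adjusted p of 0.101 (edgeR). It was 3.37-fold (1.06 to 10.7) in WT and 9.40-fold (2.83 to 31.3) in F3-KO hearts.

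Loxl2, which crosslinks basement membrane collagen, was 14.3, 18.3 and 11.4 CPM in WT sham and 58.4, 35.2 and 16.2 CPM in WT TAC hearts. In F3-KO hearts it was 26.8, 18.9 and 15.7 CPM after sham and 103, 94.4 and 19.9 CPM after TAC. Replicate 3 of each TAC group lay within the sham range of its genotype, and the other TAC hearts lay above it. The averaged difference was 2.98-fold (1.66 to 5.36; log2 1.58, SE 0.39, adjusted p = 0.104 by edgeR).

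Loxl1, the enzyme tied to elastic fibres, was the most abundant lysyl oxidase, at 43.6, 75.5 and 36.1 CPM in WT sham and 93.6, 59.2 and 42.7 CPM in WT TAC hearts. F3-KO hearts had 69.7, 45.5 and 39.2 CPM after sham and 143, 224 and 53.4 CPM after TAC. Both pairs of groups overlapped, with only WT TAC replicate 1 and F3-KO TAC replicates 1 and 2 above all sham hearts of their genotype. The averaged fold of 1.85 (1.13 to 3.04) had an adjusted p of 0.194 (edgeR).

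Loxl3 was 4.66, 6.78 and 4.75 CPM after sham and 11.6, 5.99 and 6.30 CPM after TAC in WT hearts, and 5.99, 6.83 and 4.95 CPM after sham and 14.5, 40.3 and 7.92 CPM after TAC in F3-KO hearts. All 3 F3-KO TAC hearts were above the F3-KO sham hearts, and WT groups overlapped. Its averaged fold was 2.29 (1.35 to 3.88; adjusted p = 0.132 by edgeR). Loxl4, the scarcest member, held between 6 and 85 estimated counts in any heart and is the least certain. It was 1.28 to 1.75 CPM in WT sham and 1.90 to 2.59 CPM in WT TAC hearts, which did not overlap, and 0.550 to 2.08 against 0.990 to 5.42 CPM in F3-KO hearts, which did.

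Bgn, biglycan, was even in WT sham hearts, at 253, 274 and 243 CPM. It reached 1096, 435 and 368 CPM in WT TAC hearts, and F3-KO hearts had 354, 459 and 336 CPM after sham and 1143, 1773 and 311 CPM after TAC. Every WT TAC heart was thus above every WT sham heart, but F3-KO TAC replicate 3 was below all 3 F3-KO sham hearts. The averaged difference was 2.63-fold (1.51 to 4.60; log2 1.40, SE 0.37, adjusted p = 0.110 by edgeR).

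Lum, lumican, a keratan sulfate proteoglycan that spaces collagen fibrils, was 44.1, 60.4 and 35.7 CPM in WT sham and 125, 77.6 and 77.3 CPM in WT TAC hearts. In F3-KO hearts it was 69.2, 89.8 and 68.4 CPM after sham and 212, 271 and 74.2 CPM after TAC. WT groups did not overlap, and F3-KO groups overlapped through F3-KO TAC replicate 3 alone. Lum had the smallest SE of the members past the unadjusted threshold, with an averaged fold of 2.21 (1.47 to 3.33; log2 1.15, SE 0.27, adjusted p = 0.104 by edgeR).

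Dcn and Ogn stood lower in this order. Dcn, decorin, was 507, 1154 and 407 CPM after sham and 908, 548 and 1079 CPM after TAC in WT hearts, and 471, 793 and 595 CPM after sham and 730.3, 1080.4 and 1025 CPM after TAC in F3-KO hearts. The highest heart of all 12 was a sham heart, WT sham replicate 2, and both pairs of groups overlapped. Its averaged fold of 1.37 had a 95% interval of 0.917 to 2.04 (adjusted p = 0.391 by edgeR). Ogn, osteoglycin, was 147, 139 and 111 CPM after sham and 113, 111 and 148 CPM after TAC in WT hearts, and 124, 167 and 127 CPM after sham and 145, 338 and 143 CPM after TAC in F3-KO hearts. Apart from F3-KO TAC replicate 2 its hearts covered a narrow range, and the averaged fold was 1.18 (0.865 to 1.62; adjusted p = 0.556 by edgeR).

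Fmod, fibromodulin, which binds type I collagen, rested on a single heart. It was 9.91, 11.3 and 0.573 CPM after sham and 6.20, 2.82 and 0.900 CPM after TAC in WT hearts, and 5.49, 10.6 and 6.51 CPM in F3-KO sham hearts. In F3-KO TAC hearts it was 5.16, 144 and 4.54 CPM, so replicate 2 stood far above all 11 other hearts while replicates 1 and 3 were below every F3-KO sham heart. The F3-KO log2 difference of 2.77 (SE 1.21) became -0.65 without that heart, and the averaged one went from 0.84 to -0.88. Of the 8 chondrocyte and tenocyte markers, Tnmd, Scx and Sox9 had 34, 411 and 220 estimated counts in the same heart, against 0 to 3, 49 to 163 and 19 to 106 in the other hearts. Cnmd had 16 there and 12 to 57 elsewhere, Acan had 14 there and 26 in F3-KO TAC replicate 1, and Matn3 had 5 there and 0 to 3 elsewhere. The 8 markers summed to 49.1 CPM there and to 7.68 to 18.1 CPM elsewhere, and Col2a1 and Col9a1 stayed at 4 counts or fewer in all hearts. Their part in the Fmod result was not tested.

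**Figure D2:**
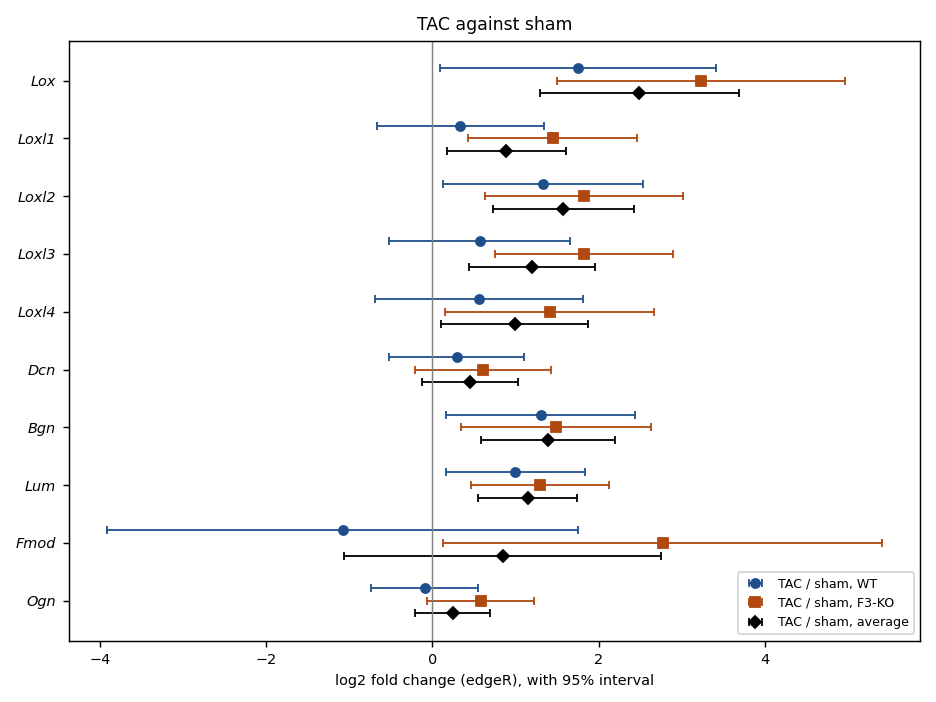
Log2 fold change of TAC against sham for each gene from the edgeR model, with 95% intervals, in WT hearts (blue circles), F3-KO hearts (orange squares) and averaged over genotypes (black diamonds). The averaged interval lies above 0 for Lox, Loxl1, Loxl2, Loxl3, Loxl4, Bgn and Lum, and includes 0 for Dcn, Fmod and Ogn.

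The TAC difference was then taken within each genotype. In WT hearts 0 of 10 members passed the adjusted test (0.0% of all genes), 4 were higher at an unadjusted p of at most 0.05 (Lox, Loxl2, Bgn and Lum; background 3.68%), and 0 were called by DESeq2 (0.192% of all genes) or limma-trend (0.0071%). The 3 members with WT TAC hearts wholly above WT sham hearts were Loxl4, Bgn and Lum, beside 4.67% of all genes. In F3-KO hearts edgeR again called 0 of 10 (0.0% of all genes), 8 were higher at an unadjusted p of at most 0.05 (all but Dcn and Ogn; background 10.6%), DESeq2 called 5 (Lox, Loxl1, Loxl2, Loxl3 and Lum; background 3.15%), all higher, and limma-trend called 0 (0.0568%). Only Lox and Loxl3 had F3-KO TAC hearts wholly above F3-KO sham hearts, 2 of 10 beside 11.5% of all genes. The median log2 fold change of the members was 0.57 in WT and 1.47 in F3-KO hearts, and that of all genes 0.00 and 0.02. In F3-KO hearts all 7 red blood cell markers were lower after TAC at an unadjusted p of at most 0.05 by edgeR (median log2 -2.26, with 0 past the adjusted test and 1 called by DESeq2). Their sums were 1073 to 4511 CPM in F3-KO sham and 366 to 980.4 CPM in F3-KO TAC hearts, against 656 to 1743 and 299 to 4366 CPM in WT sham and WT TAC hearts. Of the 8 heart muscle markers 2 were lower in F3-KO hearts at the same threshold (median log2 -0.44), and DESeq2 called 2. For both lists the share of all genes lower at that threshold is not given here. There 7 of 8 activated fibroblast markers (median log2 3.18) and 6 of 8 macrophage markers (0.85) were higher, beside 10.6% of all genes. EdgeR's adjusted test called 0 of either list, and DESeq2 called 4 and 2, beside 3.15% of all genes. In WT hearts 3 of 8 activated fibroblast markers (median log2 1.49) and 7 of 8 macrophage markers (0.89) were higher at the unadjusted threshold. The background there was 3.68%, and edgeR's adjusted test and DESeq2 called 0 of either list. The part of these markers in the members' values was not tested.

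The difference between these TAC responses was tested as an interaction. All 10 members had a larger fitted fold in F3-KO than in WT hearts, but edgeR called 0 of 10 (0.0% of all genes), with Fmod alone past an unadjusted p of at most 0.05 (background 2.31%), and 0 called by DESeq2 (0.0426% of all genes) or limma-trend (0.0071%). DESeq2 gave no p for Fmod in this or any other comparison. All 7 red blood cell markers had a lower interaction at the unadjusted threshold (median log2 -3.22), with no share of all lower genes given beside them. The largest interactions after Fmod (log2 3.85, SE 1.76) were those of Lox (1.48, SE 1.07), Loxl3 (1.26, SE 0.69) and Loxl1 (1.11, SE 0.65), each with an adjusted p of 0.954. For Bgn the interval of the interaction ran from -1.39 to 1.77 and for Lum from -0.87 to 1.47, so neither a larger nor a smaller response in F3-KO hearts could be told.

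Single hearts set these counts. F3-KO TAC replicate 3 lay within the F3-KO sham range for Loxl1, Loxl2, Loxl4, Lum and Ogn, and its activated fibroblast markers summed to 96.2 CPM, also within the F3-KO sham range of 73.0 to 113. Without it 6 members passed edgeR's adjusted test in F3-KO hearts (Lox, Loxl1, Loxl2, Loxl3, Bgn and Lum), beside 5.43% of all genes in that fit, and the same number did in the averaged comparison (5.92% of all genes), with lowest adjusted p values of 0.0129 and 0.0069, both for Lum. Without that heart the calls over all genes thus went from 0 to 778 in F3-KO hearts and from 11 to 849 averaged. Leaving out any other heart called 0 members in either comparison. At the unadjusted threshold, Lox, Loxl2, Loxl3, Bgn and Lum were higher after TAC in the averaged comparison in each of the 12 fits that left out 1 heart, and Lox, Loxl2, Loxl3 and Lum in F3-KO hearts. In WT hearts the count went from 4 to 0 without WT TAC replicate 1, WT sham replicate 1 or WT sham replicate 3. No share of all genes at the unadjusted threshold is given for these fits.

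The levels of Bgn and Lum were ordered much as the activated fibroblast sums were. WT TAC replicate 1 and F3-KO TAC replicates 1 and 2, the 3 hearts with sums of 448 to 2203 CPM, had 1096 to 1773 CPM of Bgn and 125 to 271 CPM of Lum. The 9 other hearts, with sums of 42.8 to 113 CPM, had 243 to 459 CPM of Bgn and 35.7 to 89.8 CPM of Lum. Postn held most of the sum in the first 3 hearts, with 4599, 7073 and 19134 estimated counts. In WT TAC replicate 1, Postn, Thbs4 and Cthrc1 were above the 9 other hearts, while Meox1, Ddah1, Fap, Comp and Cilp were not. The same 3 hearts were also the highest for Lox, Loxl1, Loxl2, Loxl3 and Loxl4, but not for Fmod or Ogn. Dcn kept no such order, with 730.3 to 1080.4 CPM in those 3 hearts and 407 to 1154 CPM in the 9 others. Its highest heart, WT sham replicate 2, was the one with the largest sum of the 8 general fibroblast markers (1897 CPM). Most of that sum was Gsn, with 16244 estimated counts in that heart. Pdgfra, Tcf21, Dpt, Dpep1, Ddr2, Lamc3 and Islr were each highest in another heart. Macrophage markers summed to 193 to 401 CPM in sham and 351 to 716 CPM in TAC hearts, and their part was not tested.

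**Figure D3:**
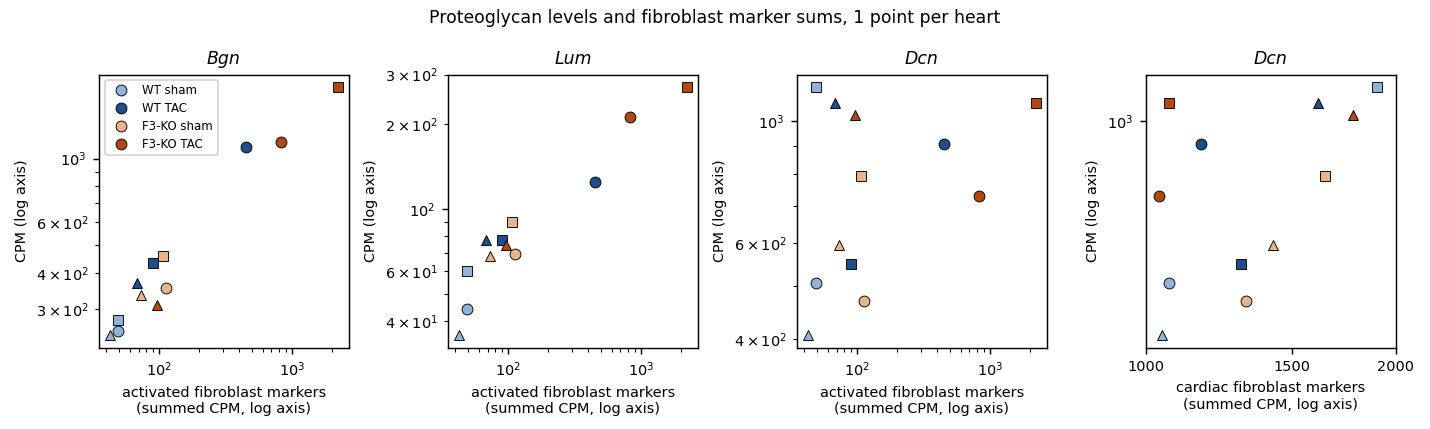
Bgn, Lum and Dcn in CPM against the summed CPM of 8 activated fibroblast markers, and Dcn against 8 general fibroblast markers, with log axes and 1 point per heart (circles, squares and triangles are replicates 1, 2 and 3). The 3 hearts above 400 CPM of activated fibroblast markers are the 3 highest for Bgn and Lum but not for Dcn. Postn makes up most of the activated sum in those 3 hearts, and Gsn most of the general sum. The marker sums carry no TMM adjustment.

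The next comparison asked whether loss of Fabp3 moved the members. In sham hearts 0 of 10 members passed edgeR's adjusted test (0.106% of all genes) or was higher at an unadjusted p of at most 0.05 (2.81%), and 0 were called by DESeq2 (0.746%) or limma-trend (0.177%). The median log2 fold change was 0.07 over the members and -0.00 over all genes. Bgn and Lum were the 2 members whose F3-KO sham hearts all lay above the WT sham hearts, beside 6.78% of all genes. Their folds were 1.49 (0.685 to 3.25) and 1.62 (0.909 to 2.89), with adjusted p values of 0.998 and 0.957 by edgeR. The sum of the activated fibroblast markers was also higher in all 3 F3-KO sham hearts than in any WT sham heart, while 4 of the 8 (Meox1, Fap, Ddah1 and Cthrc1) overlapped between the genotypes and 1 of 8 was past an unadjusted p of at most 0.05.

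After TAC all 10 members had a higher fitted mean in F3-KO than in WT hearts, with a median log2 fold change of 0.99 beside 0.02 over all genes. Again 0 of 10 passed edgeR's adjusted test (0.078% of all genes), 5 were higher at an unadjusted p of at most 0.05 (Loxl1, Loxl3, Lum, Fmod and Ogn; background 5.84%), and 0 were called by DESeq2 (0.717%) or limma-trend (0.0993%). No member had F3-KO TAC hearts wholly above WT TAC hearts, beside 6.3% of all genes. The folds were 2.15 (1.07 to 4.32) for Loxl1, 2.62 (1.27 to 5.42) for Loxl3, 1.68 (1.08 to 2.63) for Ogn, and Lum had a log2 difference of 1.00 (0.17 to 1.82), with adjusted p values of 0.463 to 0.474 by edgeR. Without F3-KO TAC replicate 2 none of these 5 stayed past the unadjusted threshold, and without WT TAC replicate 2 only Fmod did. Without F3-KO TAC replicate 3, Lum passed the adjusted test (log2 1.37, adjusted p = 0.0433 by edgeR; 0.718% of all genes). With all hearts kept, 7 of 8 activated fibroblast markers were higher at the unadjusted threshold and 0 lower (median log2 2.35, background 5.84%). EdgeR's adjusted test called 0 of these markers and DESeq2 1, and their part in the members' values was not tested.

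Averaged over sham and TAC hearts, F3-KO exceeded WT in 10 of 10 fitted means, of which Loxl3, Lum and Fmod were past an unadjusted p of at most 0.05 (background 5.37%). EdgeR called 0 of 10 after adjustment (0.412% of all genes), as did DESeq2 (1.54%) and limma-trend (0.475%), and no member's F3-KO hearts all lay above the WT hearts (0.291% of all genes). Lum had the lowest adjusted p, 0.299, at 1.80-fold (1.20 to 2.70). It was also the one member past the unadjusted threshold in each of the 12 fits that left out 1 heart, and it passed the adjusted test without F3-KO TAC replicate 3 (log2 1.04, adjusted p = 0.0224 by edgeR; 0.872% of all genes). The comparisons of surgery and of genotype share hearts (WT TAC hearts serve both), so they are not independent views of these genes.

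**Figure D4:**
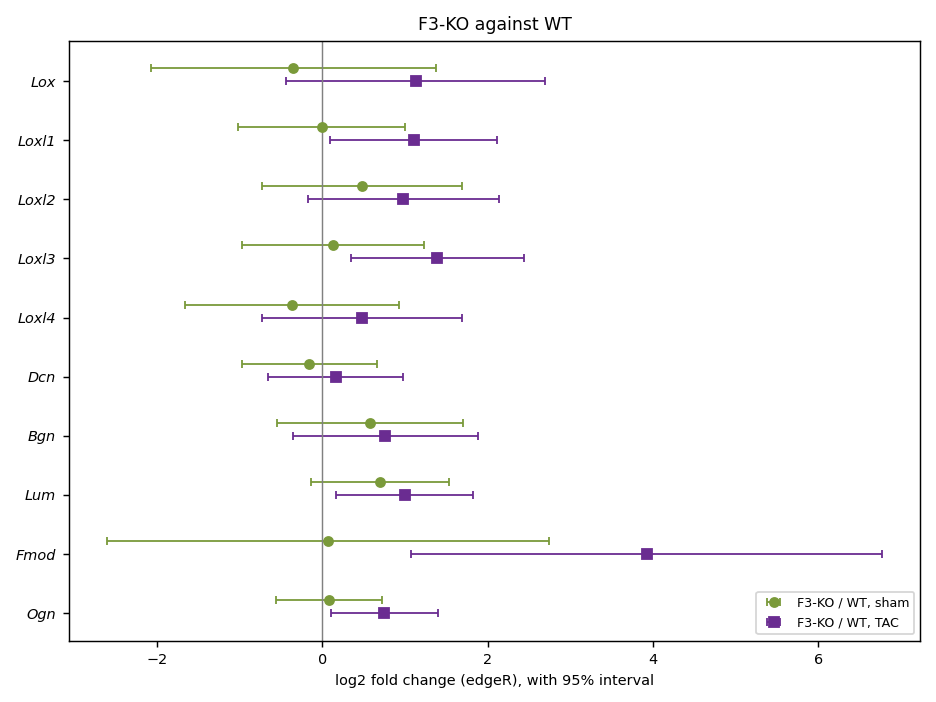
Log2 fold change of F3-KO against WT for each gene from the edgeR model, with 95% intervals, in sham hearts (green circles) and in TAC hearts (purple squares). Every sham interval includes 0, and the TAC intervals of Loxl1, Loxl3, Lum, Fmod and Ogn lie above 0.

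Ratios of members within a heart, which library size cannot move, were compared between surgeries. The log2 ratio of Lox to Loxl1 was -2.48, -2.14 and -2.94 in WT sham and -0.40, -2.53 and -1.29 in WT TAC hearts. In F3-KO hearts it was -2.89, -2.82 and -2.43 after sham and -1.92, -0.61 and -0.75 after TAC. Of the 6 TAC hearts, 5 were above every sham heart of their genotype, with WT TAC replicate 2 the exception. The mean difference was 1.37 on the log2 scale (1.12 in WT, 1.62 in F3-KO hearts), with p = 0.015 in a two-sided exact permutation test within genotypes and 0.06 after adjustment over the 4 ratios compared, where 0.005 is the smallest p the 400 arrangements allow. Lox against Col1a1, 1 of the fibrillar collagen genes, differed by 0.56 (adjusted p = 0.385, exact permutation test). A change in Lox beyond that of Col1a1 was thus not detected, and other collagen genes were not compared in this way. Bgn to Dcn differed by 0.64 (adjusted p = 0.385) and Fmod to Lum by -0.86 (adjusted p = 0.385) in the same exact test.

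**Figure D5:**
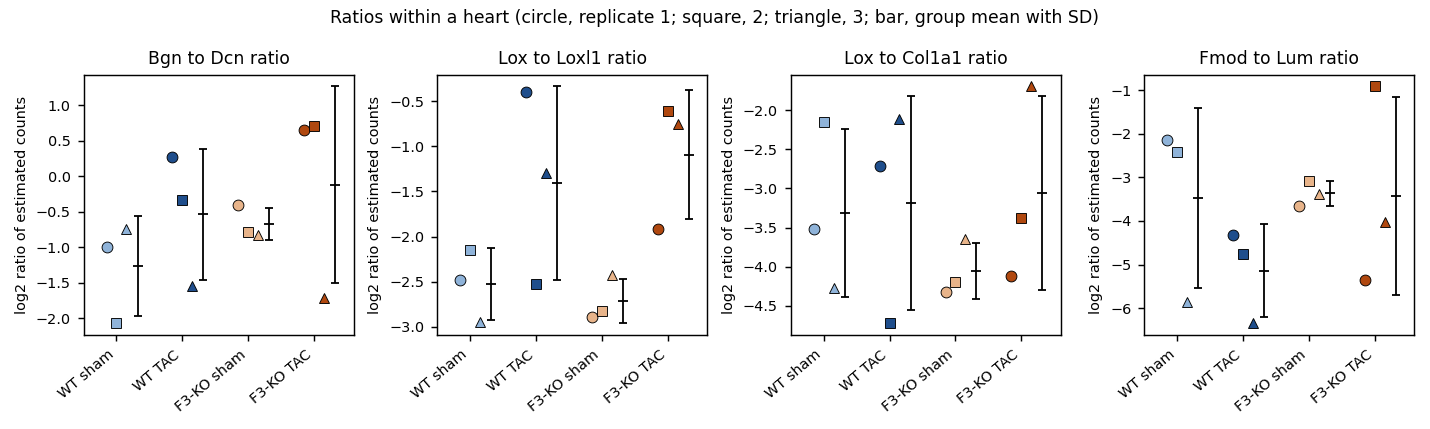
Log2 ratio of estimated counts between pairs of genes in every heart, by group; circles, squares and triangles are replicates 1, 2 and 3, and the bar gives the group mean with its SD (n = 3). For Lox to Loxl1, 5 of 6 TAC hearts lie above all sham hearts of their genotype, and in the other panels the groups overlap more.

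The 7 lists of genes that work with the members were compared by count, and edgeR's adjusted test called 0 genes of any of them after TAC averaged over genotypes. At an unadjusted p of at most 0.05 (background 11.3%), the fibrillar collagens that the enzymes crosslink were higher for 6 of 6 tested (median log2 1.90), and elastic fibre genes for 9 of 12 (0.93). Genes that modify and process procollagen were higher for 5 of 21 and lower for 1 (0.23), other small leucine-rich proteoglycans higher for 3 of 8 and lower for 1 (0.34), and glycosaminoglycan chain enzymes higher for 7 of 19 (0.12). None of 5 keratan sulfate enzymes and none of 8 copper supply genes was past it (0.10 and -0.00). Beside 4.66% of all genes, DESeq2 called 5 collagens, 6 elastic fibre genes, 2 procollagen genes higher and 1 lower, 2 chain enzymes and 0 in the other lists, and limma-trend called 0 in all 7.

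Among relatives of the proteoglycans, named here after their values were seen, Aspn (asporin, beside Omd, which lies next to Ogn in RefSeq's gene order) had an averaged log2 fold change of 1.58 (adjusted p = 0.133 by edgeR). Its means were 15.9 CPM after sham and 33.3 CPM after TAC in WT hearts, and 28.8 and 123 CPM in F3-KO hearts, where the TAC hearts ran from 29.2 to 256 CPM. Omd differed by 1.00 and Prelp, next to Fmod, by 0.58, while Chadl had -0.82 (adjusted p values of 0.157 to 0.186). In the glycosaminoglycan list Dse, which makes the dermatan sulfate found on decorin and biglycan chains, had 0.59 (adjusted p = 0.114 by edgeR). The lowest p among copper genes was that of Atp7a, the transporter that loads copper onto lysyl oxidases, at 0.25 (adjusted p = 0.295 by edgeR). Dcn and Lum are neighbours in the genome, yet their averaged folds were 1.37 and 2.21, with overlapping intervals.

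The genes whose log2 CPM followed the members most closely over the 12 hearts were found by Pearson's r, as a description only. The hearts differ in group and in their sums of fibroblast markers, and the part of these markers was not tested. For Loxl2 they were Arpc5 (r = 0.985), Col5a1 (0.984) and Pcolce (0.982), for Bgn Serpinf1 (0.978), Postn (0.977) and Ssc5d (0.976), and for Lum Col14a1 (0.975), Rab31 (0.973) and Serpinf1 (0.969). For Lox they were Anxa4 (0.976), Capn2 (0.953) and Mmp23 (0.951), for Loxl1 P3h3 (0.973), Dbn1 (0.968) and Cdk14 (0.962), and for Loxl3 Antxr1 (0.986), Lpar1 (0.974) and Mfap5 (0.972). Dcn had another set, Entpd1 (0.956), Rnase4 (0.944) and Bclaf3 (0.942), and Loxl4 had Tmem62 (0.912), Armc7 (0.897) and Csrp2 (0.891). Ogn was nearest to Star (0.912), Comp (0.879) and Serf1 (0.876), but these fell to 0.36, 0.33 and 0.41 without F3-KO TAC replicate 2. Fmod was nearest to Serf1 (0.894), Bbs12 (0.879) and a gene listed as 3-Sep (0.876), with 0.74, 0.83 and 0.73 without that heart.

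RefSeq promoters were at hand for 4 of the 10 members (Loxl4, Bgn, Fmod and Ogn), and those of Bgn and Ogn are printed because among the proteoglycans Bgn had the largest and Ogn the smallest averaged TAC fold. Each is the 250 bases before the gene's start in GRCm38.p6, on the plus strand, 5′ to 3′. Bgn lies at chrX:73483351-73483600 and Ogn at chr13:49607765-49608014. Capitals mark matches on either strand to 4 short motifs, the TATA box, the TEAD core and the AP-1 and SMAD sites, whose letters follow below.
Bgn: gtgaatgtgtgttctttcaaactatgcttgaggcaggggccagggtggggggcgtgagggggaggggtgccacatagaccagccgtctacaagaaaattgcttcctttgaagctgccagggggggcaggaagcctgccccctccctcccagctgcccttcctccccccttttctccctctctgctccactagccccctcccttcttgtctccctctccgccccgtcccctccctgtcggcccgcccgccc
Ogn: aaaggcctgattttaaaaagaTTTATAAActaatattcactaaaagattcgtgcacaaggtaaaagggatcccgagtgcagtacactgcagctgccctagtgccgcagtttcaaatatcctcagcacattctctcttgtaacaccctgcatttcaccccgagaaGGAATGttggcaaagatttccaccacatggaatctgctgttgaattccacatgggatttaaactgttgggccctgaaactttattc
Ogn had 2 overlapping matches to the TATA box, TATAAA, on opposite strands. They lay near the 5′ end of the window, the end farthest from the gene's start. It also had 1 match to the TEAD core, GGAATG. The AP-1 site, TGANTCA, was in neither window. The SMAD site, CAGACA, was in neither as well, so Bgn matched none of the 4 motifs. Over all 32851 promoters cut to this length, 12.4% held the TATA box, 12.6% the TEAD core, 6.75% the AP-1 site and 17.1% the SMAD site. The Bgn window was 64.4% G or C and the Ogn window 42.0%, beside a median of 52.4%. A match describes letters and says nothing of binding.

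Some counts need care. Estimated counts were not whole in all 12 libraries for Bgn and Loxl2 and in 11 for Loxl3, where reads may have been shared with other features. Loxl2 overlaps the long noncoding gene Gm27177, Loxl3 overlaps Htra2, and Ogn lies within Cenpp, so reads of these pairs may not be separated.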

How the data were processed

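The authors deposited estimated counts per gene for 12 whole hearts. Per the labels and the study's methods they filtered reads with SOAPnuke and mapped them with HISAT2 2.0.4 and STAR 2.3.0, and mm8 and mm9 are named without a role. The counting tool is not given in the sources used here. Of the values, 40.6% were not whole (tolerance 1e-09) and were rounded. The heart tables matched the joint matrix in 11 of 11 cases, and 1 table that breaks off was not used.

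Genes with enough counts (filterByExpr, minimum count 10) were 14094 of 19308. They were fitted with edgeR 4.0.16 quasi-likelihood (R 4.3.3) in 1 model of 4 groups with TMM factors, and called at a Benjamini-Hochberg adjusted p under 0.05 over all tested genes. DESeq2 1.42.0 and limma 3.58.1 (limma-trend) were alternatives, and ratios, with 0.5 added to each count, used exact permutation tests. The 3 gene-wise tools were tested on simulated data for TAC against sham in WT hearts. A floor of 3 counts was 0.209 to 0.288 CPM and covers counting error only.

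The members and gene lists were chosen with earlier results of these data known. Named genes were the members, Fabp3, partner genes called by edgeR in TAC against sham averaged over genotypes (there were none) and the 3 genes nearest each member. Others were named after their values were seen.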

Additional observations from a re-analysis of the deposited data

How the results depend on the processing

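Of 1279 log2 fold changes of members refitted under other settings, 1220 kept their direction and side of the threshold, 24 came past the adjusted threshold and 35 turned direction. No member was past that threshold in the main fit, so none could lose it. Taking edgeR's p without adjustment, and 0.05 as its limit, the members called numbered 4 (TAC against sham in WT), 8 (in F3-KO), 7 (averaged), 0 and 5 (F3-KO against WT in sham and in TAC), 3 (averaged) and 1 (interaction). DESeq2's Wald test called 5 in TAC against sham in F3-KO hearts and 5 in the averaged comparison. No member was called in any comparison with limma-trend, with DESeq2's size factors, without the filter, with a stricter one (10 counts or more in all 12 libraries) or, where it could be run, in a fit of only the libraries compared. The stricter filter left out Loxl4 and Fmod, which had 6 and 7 counts in their lowest hearts, so neither was tested under it. Depth was lowest for Loxl4, at 6 to 85 estimated counts in a heart.

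Leaving out each heart in turn gave 0 to 6 members called in TAC against sham in F3-KO hearts and averaged over genotypes, and 0 to 1 in F3-KO against WT in TAC hearts and averaged over surgeries. All calls came without F3-KO TAC replicate 3, and the cause was not tested. The unadjusted threshold was an alternative added after the data were seen. With it, these fits gave 0 to 4 members in WT, 4 to 9 in F3-KO and 5 to 7 in the averaged TAC comparison. For F3-KO against WT they gave 0 to 7 in TAC hearts and 1 to 7 averaged over surgeries, and for the interaction 0 to 4. The share of all genes at that threshold is not given for these fits, here or in the results above. The counts therefore have no background beside them. The Lox to Loxl1 ratio passed without genotype strata (1.37, adjusted p = 0.0346, exact permutation test) and without WT TAC replicate 2, with a range of 1.12 to 1.65 over the hearts left out.

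Over the hearts left out, log2 fold changes of TAC against sham ran from -0.021 to 0.71 for Loxl1 in WT, from -0.65 to 3.31 for Fmod in F3-KO, and averaged from -0.88 to 1.12 for Fmod and -0.034 to 0.35 for Ogn. F3-KO against WT in sham hearts ran from -0.69 to 0.32 for Lox, -0.29 to 0.37 for Loxl1, -0.42 to 0.44 for Dcn, -0.49 to 0.56 for Fmod and -0.080 to 0.16 for Ogn. In TAC hearts it ran from -0.18 to 0.90 for Loxl4 and -0.073 to 0.38 for Dcn, and averaged from -0.15 to 1.02 for Lox, -0.29 to 0.27 for Loxl4 and -0.13 to 0.30 for Dcn. The interaction ran from -0.28 to 0.58 for Dcn, -0.39 to 0.84 for Bgn and -0.086 to 0.67 for Lum. With limma-trend, F3-KO against WT was 0.022 for Loxl1 in sham hearts and -0.15 for Loxl4 averaged.

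Over all genes, edgeR called 0, 0 and 11 after TAC (WT, F3-KO, averaged), 15, 11 and 58 for genotype (sham, TAC, averaged) and 0 for the interaction. Without 1 heart these became 0 to 1, 0 to 778, 0 to 849, 2 to 23, 6 to 103, 30 to 125 and 0 to 4, and under the other alternatives at the adjusted threshold 0 to 27, 0 to 443, 10 to 656, 8 to 105, 0 to 101, 40 to 217 and 0 to 6.

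Replicate numbers are shared between groups. Of 18 same-number pairs 4 had a correlation of deviations over 0.1 (range -0.14 to 0.36, highest for WT TAC and F3-KO TAC replicates 3), and 6 of 12 hearts correlated best with their own number, so the numbers were not taken as a pairing although some hearts did deviate together. With the replicate block 0 members were called in all comparisons, and F3-KO against WT turned to 0.025 for Loxl1 in sham hearts and to -0.13 for Loxl4 and -0.011 for Dcn averaged.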
